A study of Mus musculus with 9 samples.

Results

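Axonemal and motile cilium genes were followed by their names through hippocampal RNA of 3 groups of male mice. The members were all genes of the expression table whose symbol began with Cfap, Dnah, Dnai, Rsph, Tekt, Drc or Spag followed by a digit, which gave 84 of 57180 genes. The rule read names and no measured value, but it was set with earlier results of these data known. Of the 84 members, 68 passed the filter on low counts and were tested among 17550 genes. The 16 others could not be tested, and 3 of them had no count in any library (Cfap97d1, Spag11a and Spag11b). The 13 that remained had few counts: Dnah17, Cfap53, Cfap157, Cfap221, Cfap299, Cfap73, Cfap77, Cfap99, Rsph6a, Rsph14, Tekt3 and the antisense transcripts Spag17os and Dnah2os, which the name rule also caught.

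The MAN@SKI II group were BTBR T+ Itpr3tf/J mice given a nanomicelle directed to the brain and labelled as inhibiting S1P, a signalling lipid. Model stands for vehicle-injected BTBR T+ Itpr3tf/J mice and Con for vehicle-injected C57BL/6J mice. MAN@SKI II was given at 40 mg/kg/day into the tail vein for 7 days, from 5 weeks of age, and the vehicle groups were injected on the same schedule. The vehicle is called normal saline in part of the labels and PBS in the treatment text. Hippocampi were taken at 6 weeks, after behavioural tests, with 3 mice in each group, and poly(A) RNA was sequenced. BTBR is an inbred strain, so Model and Con differ across the whole genome and not at 1 locus. MAN@SKI II was compared with Model and with Con, but C57BL/6J mice given MAN@SKI II were not analysed here.

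A motile cilium beats because dynein motors slide the microtubule doublets of its core, the axoneme, past each other. Outer and inner dynein arms supply force, intermediate chains help to anchor the arms, the nexin-dynein regulatory complex links neighbouring doublets, and radial spokes carry signals outwards from the central apparatus, a pair of single microtubules with projections. In the brain, ependymal cells lining the ventricles carry tufts of such cilia and choroid plexus epithelium expresses part of the same gene set. Neurons and astrocytes carry a single primary cilium, which lacks the machinery for beating. The hippocampus borders the lateral ventricle, so a dissection can take along ependyma and choroid plexus.

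The 9 libraries held 14751054 to 18827093 counts over all genes, and 3 counts corresponded to 0.159 to 0.203 CPM (counts scaled to library size). The neuronal list was present in every library, where its genes summed to 5481 to 6107 CPM in MAN@SKI II mice, 5290 to 5793 CPM in Model and 5286 to 5619 CPM in Con. MAN@SKI II 2 stood apart from its group, with a chi-square per degree of freedom of 24.9 and 28.9 against the other MAN@SKI II libraries, where all other replicate pairs lay between 8.53 and 10.9. Choroid plexus RNA differed between the strains. Ttr, the transthyretin gene and a defining choroid plexus transcript, had 17.0, 19.3 and 313.1 CPM in MAN@SKI II mice, 13.5, 257.0 and 12.9 CPM in Model, and 2229, 1258 and 823 CPM in Con. With this spread Ttr itself was not called, at a log2 fold change of -3.93 ± 1.77 (SE) in Model against Con (edgeR, adjusted p = 0.302). The mean log2 CPM of 20 choroid plexus genes was 0.50, 0.53 and 1.94 in MAN@SKI II, -0.01, 1.90 and 0.32 in Model, and 4.70, 3.53 and 3.29 in Con. Con did not overlap either BTBR group, and within BTBR, Model 2 and MAN@SKI II 3 were the high libraries. The mean of 16 ependymal genes with other names was closer between strains, at 1.20, 1.53 and 1.45 in MAN@SKI II, 0.98, 1.53 and 0.94 in Model, and 1.96, 1.59 and 1.58 in Con. In such bulk tissue, fewer cells of a type and less RNA per cell cannot be told apart.

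Per length of transcript, most members were low. The authors' FPKM values, which divide by gene length, were highest for members that are not confined to motile cilia. Spag9, a scaffold for kinase and motor proteins, averaged 21.8 ± 1.31 FPKM in MAN@SKI II, 21.7 ± 0.212 FPKM in Model and 22.8 ± 0.356 FPKM in Con (SD, n = 3 each). Cfap36 averaged 21.3 ± 0.489 FPKM in MAN@SKI II, 21.7 ± 1.25 FPKM in Model and 22.3 ± 0.730 FPKM in Con. The order of these 2 genes is within the spread of the libraries. Among genes of the axoneme proper, Rsph9 of the radial spoke head had 5.94 ± 0.789 FPKM in MAN@SKI II, 6.00 ± 0.275 FPKM in Model and 7.63 ± 1.18 FPKM in Con. Drc1 of the nexin-dynein regulatory complex had 7.20 ± 0.328 FPKM in MAN@SKI II, 6.61 ± 0.427 FPKM in Model and 3.81 ± 0.228 FPKM in Con. Dnah5, an outer arm heavy chain, lay at 0.432 ± 0.0822 FPKM in MAN@SKI II, 0.422 ± 0.0347 FPKM in Model and 0.408 ± 0.0708 FPKM in Con. The label therefore covers a mixed set, in which Spag5, Spag7, Spag9, Cfap20, Cfap36, Cfap97, Cfap298 and Cfap410 are also known in cells without motile cilia.

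Model differed from Con in both directions. Of the 68 tested members, 5 rose in Model (Cfap54, Dnah6, Dnah8, Drc1 and Cfap46), 7.35% of them, where 3.11% of all tested genes rose. A further 5 fell (Drc7, Cfap69, Cfap65, Cfap45 and Drc3), also 7.35%, where 4.52% of all tested genes fell. Calls are at an adjusted p under 0.05 by edgeR's quasi-likelihood test with Benjamini-Hochberg adjustment over all 17550 genes. At an unadjusted p under 0.05, 24 of 68 members passed, against 19.6% of all genes. The fold change was negative in 43 members (63.2%, against 49.9% of all genes) and positive in 25, and the median log2 fold change was -0.13, against 0.00031 for all tested genes. All libraries of Model lay above all of Con in 10 members (14.7%, against 16.0% of all genes) and below all of Con in 16 members (23.5%, against 16.2%). The members that were called thus lay in both directions, as the map of all tested members shows.

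**Figure D1:**
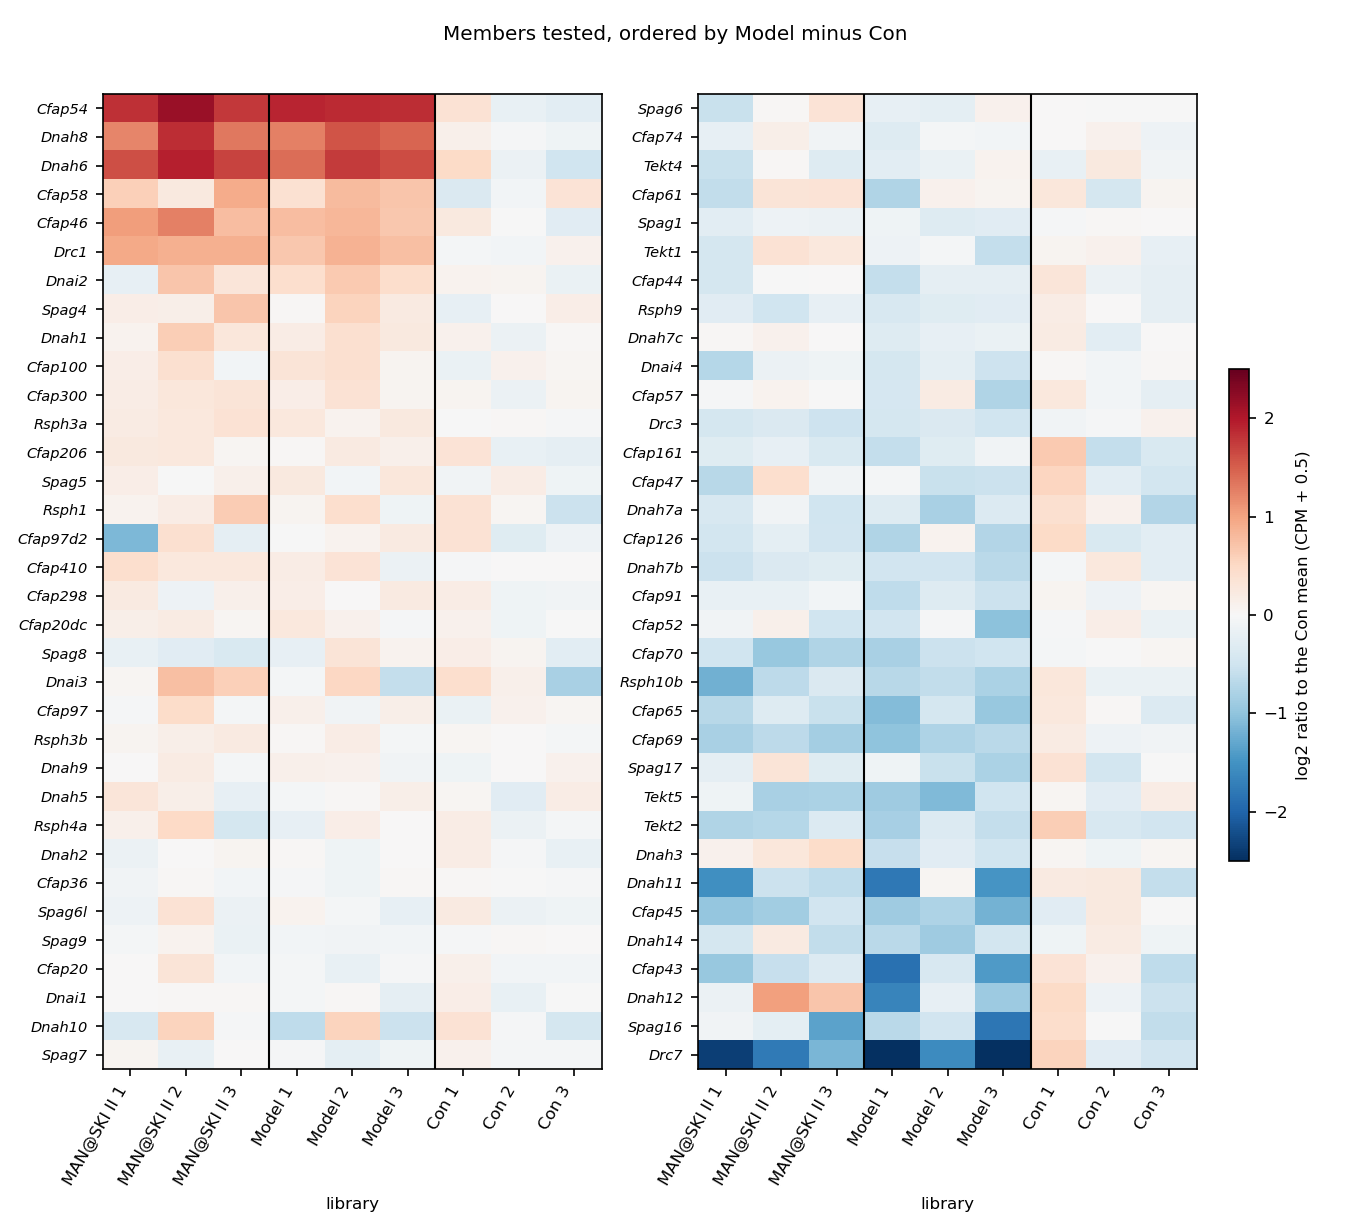
Each row is 1 of the 68 tested members and each column a library; colour gives the log2 ratio of its level to the Con mean, on the log2(CPM + 0.5) scale, and the rows run from the most positive to the most negative Model minus Con fold change. The top rows (Cfap54, Dnah8 and Dnah6) are high in all 6 BTBR libraries, and Drc7 in the bottom row is lowest in Model 1 and Model 3.

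The largest rise was that of Cfap54, which encodes a large protein of a central apparatus projection. Cfap54 (ENSMUSG00000020014, chr10:92611481-92917480, minus strand, in the coordinates of the deposited table, whose notes name GRCm39) had 24.3, 30.7 and 23.4 CPM in MAN@SKI II mice, 25.9, 25.1 and 24.7 CPM in Model, and 8.52, 5.65 and 5.32 CPM in Con. Every BTBR library was above every Con library, and the lowest of them was still far from the highest Con value. The log2 fold change was 1.96 ± 0.17 (SE) in Model against Con (edgeR, adjusted p = 4.47e-05). It was 2.01 ± 0.17 in MAN@SKI II against Con (edgeR, adjusted p = 3.67e-05). Cfap46, another central apparatus protein, had 8.51, 9.89 and 6.96 CPM in MAN@SKI II mice, 6.88, 7.18 and 6.46 CPM in Model, and 4.62, 3.83 and 3.09 CPM in Con. These groups also did not overlap, but the step was smaller, with a log2 fold change of 0.84 ± 0.18 in Model against Con (edgeR, adjusted p = 0.0165) and 1.14 ± 0.18 in MAN@SKI II against Con (adjusted p = 0.00263). The Cfap46 call in Model against Con was lost when single libraries were left out, with an adjusted p (edgeR) of 0.0542 when Model 1 was left out, 0.0587 for Model 2, 0.0586 for Con 2 and 0.0712 for Con 3.

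2 dynein heavy chains, the motor subunits themselves, rose. Dnah6, an inner arm heavy chain (ENSMUSG00000052861, chr6:72994589-73198634, minus strand), had 16.5, 21.0 and 17.4 CPM in MAN@SKI II mice, 14.1, 18.2 and 16.8 CPM in Model, and 7.22, 4.53 and 3.41 CPM in Con. The log2 fold change of Dnah6 was 1.71 ± 0.23 in Model against Con (edgeR, adjusted p = 0.00120) and 1.87 ± 0.23 in MAN@SKI II against Con (adjusted p = 0.000695). Dnah8, an outer arm heavy chain best known from sperm (ENSMUSG00000033826, chr17:30843328-31096339, plus strand), was low throughout, at 2.76, 4.59 and 3.00 CPM in MAN@SKI II mice, 2.87, 3.71 and 3.34 CPM in Model, and 1.04, 0.883 and 0.799 CPM in Con. Both genes separated the strains without overlap. For Dnah8 the log2 fold change was 1.87 ± 0.26 in Model against Con (edgeR, adjusted p = 0.00121) and 1.92 ± 0.26 in MAN@SKI II against Con (adjusted p = 0.00104). The locus of Dnah8 overlaps Glo1, the glyoxalase gene, on the opposite strand. Glo1 fell, with 23.5 CPM in Model and 39.9 CPM in Con, a log2 fold change of -0.76 ± 0.08 (edgeR, adjusted p = 0.000147). Whether reads were counted by strand is not given in the sources used here, so reads of Dnah8 and Glo1 in the shared stretch cannot be told apart.

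Drc1 had the smallest standard error of the risers. It encodes a base plate subunit of the nexin-dynein regulatory complex and is a known gene of primary ciliary dyskinesia in humans. Drc1 (ENSMUSG00000073102, chr5:30486386-30524039, plus strand) had 22.1, 21.1 and 21.4 CPM in MAN@SKI II mice, 18.3, 20.9 and 19.3 CPM in Model, and 10.9, 10.7 and 12.1 CPM in Con. All libraries of MAN@SKI II were above all of Model and all of Model above all of Con, though the first of these steps did not pass the test. The log2 fold change of Drc1 was 0.79 ± 0.10 in Model against Con (edgeR, adjusted p = 0.000464), 0.94 ± 0.10 in MAN@SKI II against Con (adjusted p = 0.000141) and 0.14 ± 0.09 in MAN@SKI II against Model (adjusted p = 0.914).

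**Figure D2:**
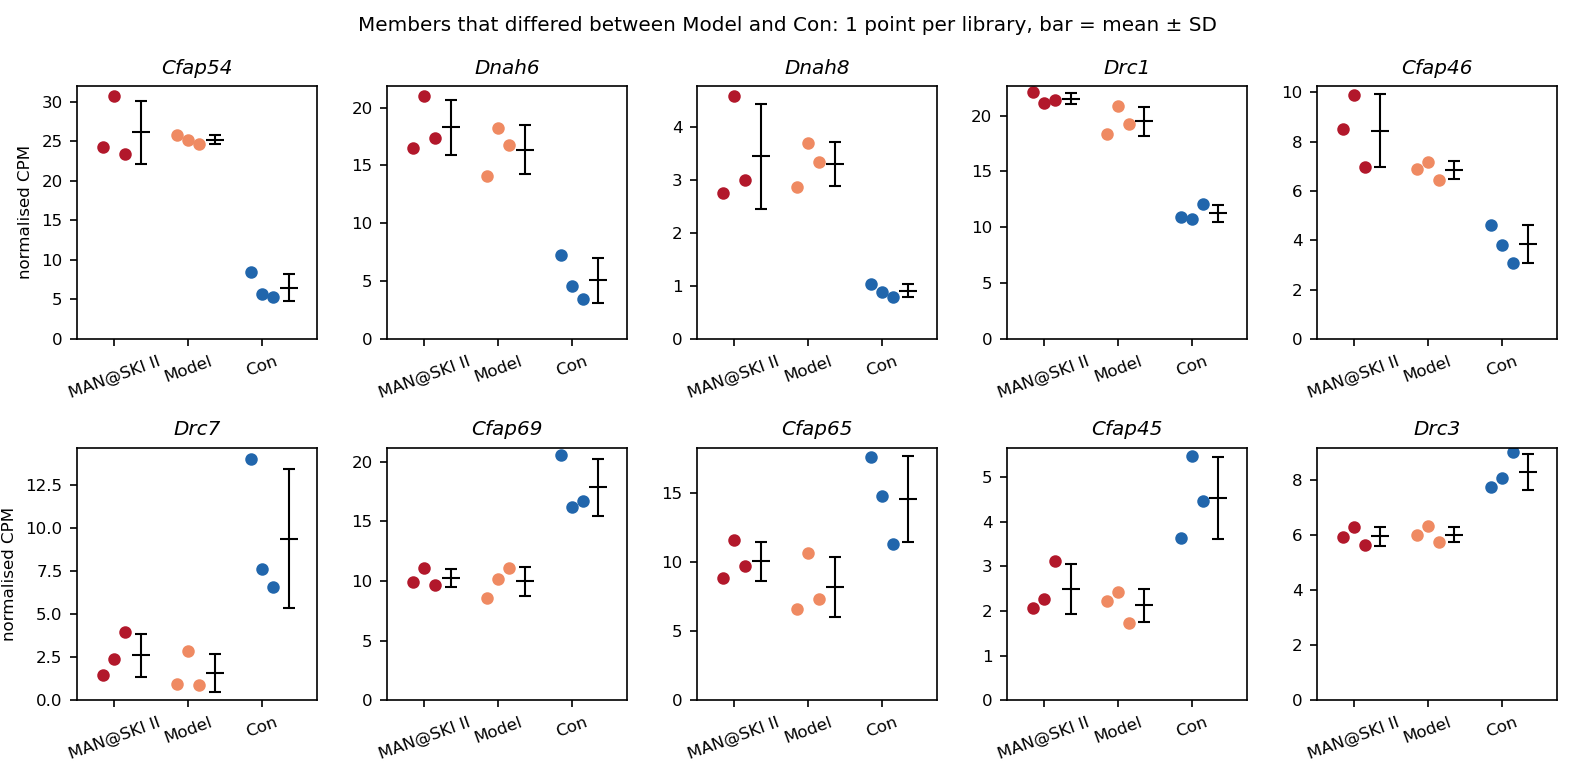
Normalised CPM of the 10 members that differed between Model and Con, with 1 point per library, a bar for the mean and SD of 3 libraries beside each group, and an axis that starts at 0 in each panel. In the upper row both BTBR groups lie above Con without overlap, as for Cfap54 with a Con maximum of 8.52 CPM; in the lower row they lie below it, as for Drc7 with a Con minimum of 6.55 CPM, except that MAN@SKI II 2 (11.6 CPM) lies above Con 3 (11.3 CPM) for Cfap65.

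The members that fell came from the nexin-dynein regulatory complex, the central apparatus and the inner wall of the doublets. Of 10 inner arm and 4 outer arm dynein heavy chains tested, 1 in each class rose and 0 fell, where 4.52% of all tested genes fell. In classes this small 0 falls says little, and 8 of the 10 inner arm chains had negative fold changes. In the nexin-dynein regulatory complex, where Drc1 rose, the other 2 members fell. Drc7 (ENSMUSG00000031786, chr8:95781731-95804769, plus strand) had 1.44, 2.40 and 3.96 CPM in MAN@SKI II mice, 0.958, 2.84 and 0.891 CPM in Model, and 13.98, 7.60 and 6.55 CPM in Con. Its log2 fold change was the largest fall among the tested members, at -2.57 ± 0.53 in Model against Con (edgeR, adjusted p = 0.0204), and was -1.85 ± 0.50 in MAN@SKI II against Con (adjusted p = 0.0611, not called). Drc3 had 5.92, 6.29 and 5.62 CPM in MAN@SKI II mice, 5.99, 6.31 and 5.74 CPM in Model, and 7.74, 8.07 and 9.0 CPM in Con. The groups of Drc3 were tight and did not overlap, with a log2 fold change of -0.46 ± 0.12 in Model against Con (edgeR, adjusted p = 0.0477) and -0.48 ± 0.13 in MAN@SKI II against Con (adjusted p = 0.0404). The Drc3 call in Model against Con was lost in DESeq2, with no filter, without any single Model or Con library, and without MAN@SKI II 1 or 3.

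In the central apparatus, where Cfap54 and Cfap46 rose, Cfap69 and Cfap65 fell. Cfap69 (ENSMUSG00000040473, chr5:5629278-5714239, minus strand) had 9.95, 11.1 and 9.64 CPM in MAN@SKI II mice, 8.62, 10.2 and 11.1 CPM in Model, and 20.6, 16.2 and 16.7 CPM in Con. It fell in both BTBR groups, with a log2 fold change of -0.84 ± 0.13 in Model against Con (edgeR, adjusted p = 0.00258) and -0.80 ± 0.13 in MAN@SKI II against Con (adjusted p = 0.00353). Cfap65 had 8.86, 11.6 and 9.70 CPM in MAN@SKI II mice, 6.58, 10.7 and 7.35 CPM in Model, and 17.6, 14.8 and 11.3 CPM in Con. Its highest MAN@SKI II value lay above its lowest Con value, and the fall was called in Model against Con (-0.82 ± 0.21, adjusted p = 0.0347) but not in MAN@SKI II against Con (-0.53 ± 0.21, adjusted p = 0.156, edgeR). Cfap70 was called in edgeR in MAN@SKI II against Con, with a log2 fold change of -0.91 ± 0.23 (adjusted p = 0.0349) beside -0.77 ± 0.23 in Model against Con (adjusted p = 0.0669, edgeR, not called). Its call in MAN@SKI II against Con was lost in DESeq2, with no filter and in the 6 compared libraries alone. In Model against Con it was called in the 6 compared libraries alone and without MAN@SKI II 2. The remaining central apparatus members did not pass, among them Spag6l at -0.05 ± 0.18, Spag16 at -1.46 ± 0.81 and Spag17 at -0.87 ± 0.51 in Model against Con.

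Cfap45, a protein of the inner wall of the doublet microtubules, had 2.07, 2.26 and 3.13 CPM in MAN@SKI II mice, 2.21, 2.43 and 1.73 CPM in Model, and 3.64, 5.47 and 4.47 CPM in Con. It fell with a log2 fold change of -1.09 ± 0.23 in Model against Con (edgeR, adjusted p = 0.0147) and -0.87 ± 0.23 in MAN@SKI II against Con (adjusted p = 0.0428). Only Cfap69 among these falls was also called without Model 1 and without Model 3, where 1 member was called lower. Without MAN@SKI II 2 the number called lower in Model against Con was 8, and without Con 1 or without Con 2 it was 2.

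Among all tested genes 3.11% rose, 4.52% fell and 49.9% had negative fold changes, and in classes as small as the following a single call already exceeds these shares. Of 10 inner arm heavy chains, 1 rose and 0 fell, and 8 had negative fold changes. Of 4 outer arm heavy chains, 1 rose and 0 fell. The airway-type outer arm chains Dnah5 and Dnah9 had log2 fold changes of 0.05 ± 0.18 and 0.05 ± 0.10 in Model against Con, and Dnah11 had -1.09 ± 0.67. None of these 3 passed the test. The groups of Dnah9 overlapped, with 29.2, 33.7 and 27.9 CPM in MAN@SKI II mice, 31.7, 31.2 and 27.4 CPM in Model, and 26.8, 29.0 and 31.1 CPM in Con. Of the 4 intermediate chains none was called, with Dnai1 at -0.09 ± 0.18 and Dnai2 at 0.67 ± 0.30. Of the 6 radial spoke members none was called in edgeR, and the spoke head genes Rsph1, Rsph4a and Rsph9 had log2 fold changes of 0.16 ± 0.25, -0.01 ± 0.25 and -0.34 ± 0.13. The largest difference of the class was that of Rsph10b, with 1.495, 2.40 and 3.06 CPM in MAN@SKI II mice, 2.33, 2.49 and 2.17 CPM in Model, and 5.07, 3.59 and 3.62 CPM in Con. Con did not overlap either BTBR group, and the log2 fold change of Rsph10b was -0.81 ± 0.26 in Model against Con (edgeR, adjusted p = 0.0898). It was called lower there in the 6 compared libraries alone and without MAN@SKI II 1. All 4 tektins, the filament proteins inside the doublets, were negative in Model against Con and none was called in edgeR, with Tekt1 at -0.28 ± 0.29, Tekt2 at -0.93 ± 0.50 and Tekt4 at -0.15 ± 0.31. Tekt5 came nearest, with 6.61, 3.88 and 3.96 CPM in MAN@SKI II mice, 3.65, 3.07 and 4.96 CPM in Model, and 7.41, 5.83 and 8.25 CPM in Con. Model lay below Con without overlap, while MAN@SKI II 1 lay among the Con values. The log2 fold change of Tekt5 was -0.88 ± 0.25 in Model against Con (edgeR, adjusted p = 0.0568). It was called lower there in DESeq2, in limma-voom, with no filter, in the 6 compared libraries alone, and without MAN@SKI II 1 or 2. Rsph10b and Tekt5 were named after their values were seen. Of 20 other Cfap genes, 1 fell, and of 6 other Spag genes none was called.

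Start-site sequences of 4 risers are shown here with 1 fallen member beside them, because an X-box, the site of RFX factors that control ciliary genes, is the known shared element of this gene set. The windows run from 250 bases before to 50 bases after the annotated start, are read 5′ to 3′ on the strand of the gene, and come from RefSeq on GRCm38.p6. Capitals mark the 6-base core of the X-box repeat, GTTGCC, or its complement GGCAAC, which were the only letters searched for it on both strands; the forkhead letters TGTTTAC, searched likewise, occur in none of these windows. Drc1 lies at chr5:30281143-30281442 (plus strand), Cfap46 at chr7:139683766-139684065 (minus strand), Dnah6 at chr6:73221582-73221881 (minus strand), Dnah8 at chr17:30626686-30626985 (plus strand) and Drc7 at chr8:95054853-95055152 (plus strand).
Drc1: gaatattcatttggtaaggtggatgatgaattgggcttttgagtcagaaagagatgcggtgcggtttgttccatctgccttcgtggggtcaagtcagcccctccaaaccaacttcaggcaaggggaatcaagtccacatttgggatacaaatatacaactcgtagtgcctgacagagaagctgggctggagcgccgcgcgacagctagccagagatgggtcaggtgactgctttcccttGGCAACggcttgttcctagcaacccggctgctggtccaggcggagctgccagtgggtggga
Cfap46: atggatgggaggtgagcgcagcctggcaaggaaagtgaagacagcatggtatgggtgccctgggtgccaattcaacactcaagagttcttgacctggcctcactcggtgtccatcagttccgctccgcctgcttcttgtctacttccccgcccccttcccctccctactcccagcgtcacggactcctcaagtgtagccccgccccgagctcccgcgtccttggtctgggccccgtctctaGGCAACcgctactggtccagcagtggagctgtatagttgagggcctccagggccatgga
Dnah6: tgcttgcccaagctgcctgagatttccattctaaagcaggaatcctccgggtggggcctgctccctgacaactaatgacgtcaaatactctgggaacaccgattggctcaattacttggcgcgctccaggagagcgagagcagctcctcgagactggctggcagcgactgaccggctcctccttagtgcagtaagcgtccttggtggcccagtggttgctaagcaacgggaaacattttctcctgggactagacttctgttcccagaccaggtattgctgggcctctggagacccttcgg
Dnah8: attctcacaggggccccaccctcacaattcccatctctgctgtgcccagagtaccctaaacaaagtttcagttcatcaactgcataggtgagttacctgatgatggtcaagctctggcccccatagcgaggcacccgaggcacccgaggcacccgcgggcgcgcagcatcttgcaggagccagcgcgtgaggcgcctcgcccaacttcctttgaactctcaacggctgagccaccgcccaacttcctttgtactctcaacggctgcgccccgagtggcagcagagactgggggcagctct
Drc7: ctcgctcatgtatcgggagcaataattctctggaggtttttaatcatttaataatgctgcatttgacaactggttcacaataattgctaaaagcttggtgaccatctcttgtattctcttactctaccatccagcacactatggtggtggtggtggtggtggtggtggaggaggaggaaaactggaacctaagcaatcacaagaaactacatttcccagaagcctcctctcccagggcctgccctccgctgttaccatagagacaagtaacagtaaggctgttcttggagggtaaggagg
The core began 11 bases before the start in Drc1 and 9 bases before it in Cfap46. Its letters were not found in the windows of Dnah6, Dnah8 or Drc7, nor in those of Cfap45, Cfap69, Cfap70 and Drc3. Versions of the X-box with other letters were not searched, so these windows may still hold one. Cfap54 and Cfap65 have no entry. Over the 63 members with an entry, 26 of 71 windows (36.6%) held the core, against 4111 of 32851 windows of all genes (12.5%). The forkhead letters were in 4 of 71 member windows (5.63%) and in 3.65% of all windows. These matches describe the letters and not binding.

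Choroid plexus and ependymal RNA moved with strain. Of 20 choroid plexus genes, 12 fell and 0 rose in Model against Con, with a median log2 fold change of -3.14. Their summed level was 161 to 498 CPM in MAN@SKI II mice, 133 to 481 CPM in Model and 1242 to 3325 CPM in Con. Steap1 of this list was at 0 in all 3 Model libraries and in MAN@SKI II 1 and 3, and Slc4a5 in Model 1 and 3. Of 16 ependymal genes outside the family names, 3 fell (Tppp3, Mia and Ccdc39) and 1 rose (Zmynd10), with a median of -0.54. Their summed level was 81.3 to 93.1 CPM in MAN@SKI II mice, 70.9 to 80.2 CPM in Model and 96.5 to 109.1 CPM in Con, so that Con was above both BTBR groups without overlap. Foxj1, the master regulator of motile ciliogenesis, had 6.56, 5.51 and 8.11 CPM in MAN@SKI II mice, 5.57, 7.53 and 3.79 CPM in Model, and 13.2, 9.48 and 8.57 CPM in Con. Its log2 fold change was -0.89 ± 0.25 in Model against Con (edgeR, adjusted p = 0.0610).

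The rise of the 5 higher members ran opposite to both marker lists, which were lower in BTBR. The slope of each member on the choroid plexus mean, fitted beside group, uses the differences within groups. It is given as log2 change per unit of that mean (log2 CPM). No member passed an adjusted p under 0.05 for this slope in edgeR, where 5 of 17550 genes (0.0285%) did with a positive slope. Of these 5 genes, 3 were in the choroid plexus list itself, whose mean is the term. DESeq2, limma-voom and edgeR without a filter each called 1 member, Drc7. At an unadjusted p under 0.05, 9 members had a positive slope, where 2.58% of all genes did, and 1 a negative slope, Cfap97. The slope was below zero in 19 of 68 members (27.9%, against 49.3% of all genes). The 9 were Drc7, Cfap43, Rsph1, Tekt2, Dnah11, Cfap126, Cfap65, Cfap44 and Dnah10.

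Drc7 had a slope of 0.81 ± 0.11 (edgeR, adjusted p = 0.0734). Drc7 was highest in the library with most choroid plexus RNA in every group, at 3.96 CPM in MAN@SKI II 3, 2.84 CPM in Model 2 and 13.98 CPM in Con 1. In the 6 BTBR libraries alone its slope was 0.84 ± 0.17 (adjusted p = 0.993). Cfap43, needed for the link between the doublets and the inner arms, had 1.78, 2.47 and 3.00 CPM in MAN@SKI II mice, 0.718, 2.84 and 1.17 CPM in Model, and 5.14, 4.30 and 2.34 CPM in Con, and a slope of 0.66 ± 0.16. Rsph1 had 6.50, 6.99 and 9.70 CPM in MAN@SKI II mice, 6.41, 8.34 and 5.68 CPM in Model, and 7.99, 6.30 and 4.05 CPM in Con. Its groups overlapped, and within each group its highest value was in the library with most choroid plexus RNA, with a slope of 0.36 ± 0.10. Neither of the 2 slopes passed the adjusted threshold (edgeR, adjusted p = 0.683 for Cfap43 and 0.842 for Rsph1).

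The slopes of the risers, like those of the other members that fell, were smaller than that of Drc7. For the risers they were 0.05 ± 0.10 for Cfap54, 0.06 ± 0.14 for Dnah8, 0.02 ± 0.06 for Drc1, 0.02 ± 0.11 for Cfap46 and 0.20 ± 0.11 for Dnah6 (± SE). Within Con alone, the library with most choroid plexus RNA had the highest Cfap54, Dnah6, Dnah8 and Cfap46. Among the other members that fell, Cfap65 had a slope of 0.25 ± 0.10, Cfap45 of 0.09 ± 0.14, Cfap69 of 0.07 ± 0.08 and Drc3 of -0.03 ± 0.07. The difference between these slopes and those of the risers was not tested.

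**Figure D3:**
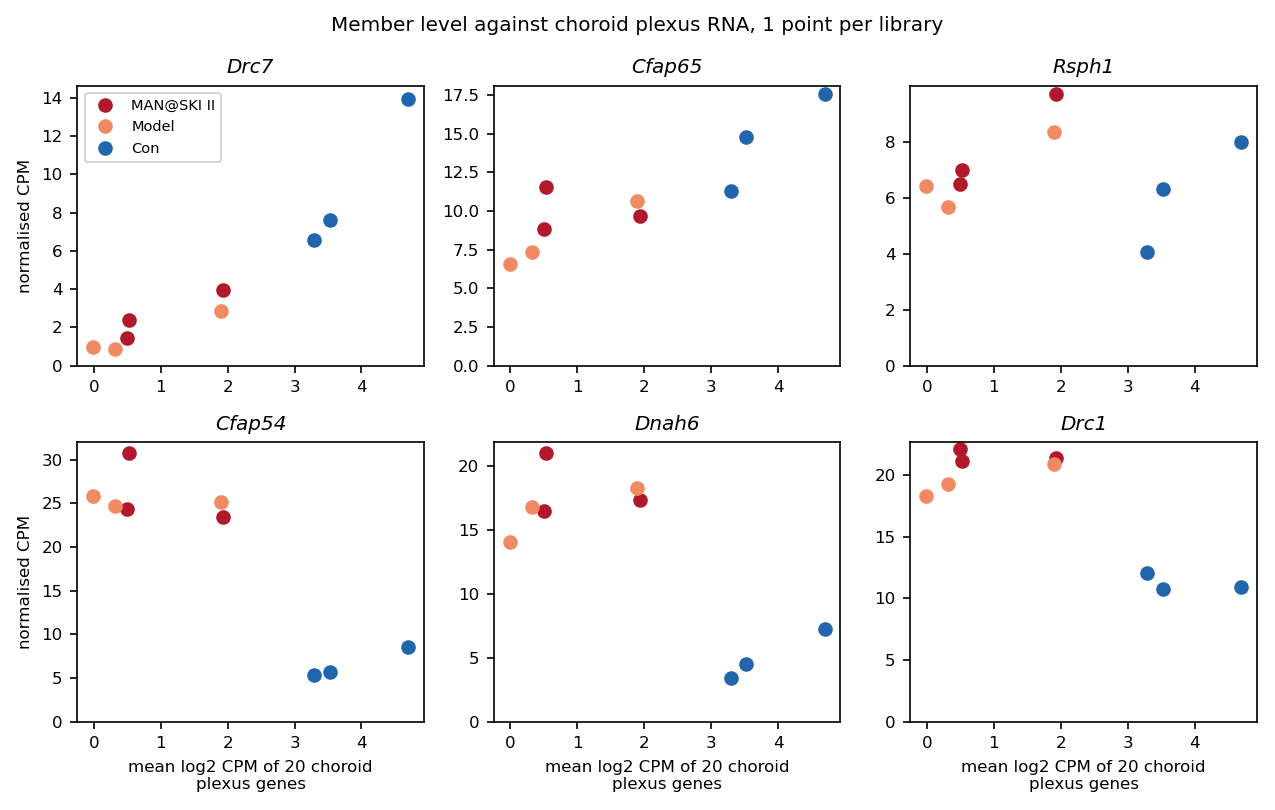
Normalised CPM of 6 members (vertical, from 0) against the mean log2 CPM of 20 choroid plexus genes (horizontal), 1 point per library. Drc7 climbs with the choroid plexus mean over the 9 libraries except between Model 1 (0.958 CPM) and Model 3 (0.891 CPM), Rsph1 is highest in the library of each group with most choroid plexus RNA, and Cfap54, Dnah6 and Drc1 form a high BTBR cloud and a low Con cloud.

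With the choroid plexus mean as a term beside group, none of the members that fell was called, and differences between their estimates were not tested. Drc7 had a log2 fold change of -0.16 ± 0.39 in Model against Con (edgeR, adjusted p = 0.934) and Cfap65 of -0.07 ± 0.34 (adjusted p = 0.972). Cfap69 stayed at -0.63 ± 0.28, Cfap45 at -0.82 ± 0.48 and Drc3 at -0.55 ± 0.26, none of them called (edgeR, adjusted p = 0.523, 0.655 and 0.553). Cfap54 was at 2.13 ± 0.35 (adjusted p = 0.0244) and Dnah6 at 2.34 ± 0.41 (adjusted p = 0.0370), both still called. Dnah8 at 2.06 ± 0.51, Drc1 at 0.87 ± 0.20 and Cfap46 at 0.90 ± 0.38 kept their size but were not called (edgeR, adjusted p = 0.140, 0.102 and 0.490). With the ependymal mean as the term, Cfap54, Dnah6, Dnah8 and Drc1 were called, at 2.25 ± 0.23, 2.22 ± 0.27, 2.27 ± 0.34 and 0.84 ± 0.14, and no member was called lower. The ependymal mean includes motile cilium genes such as Foxj1, Ccdc39 and Zmynd10. This term therefore also removes a shift shared by such genes, whatever its source. Con and BTBR did not overlap in the choroid plexus mean, so the term shares most of its range with strain and the standard errors were wider. For the called members in either direction, strain and carry-over of these tissues cannot be told apart by this fit.

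**Figure D4:**
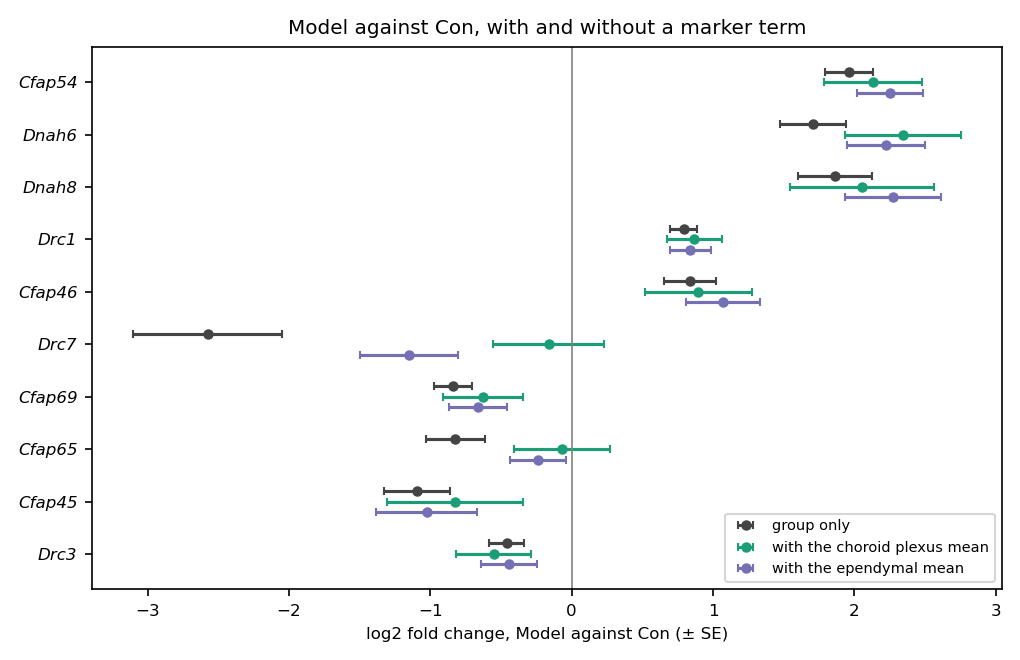
Log2 fold change of Model against Con, with SE, for the 10 members called, from the fit by group alone and from fits with the choroid plexus or ependymal mean as a further term. The 5 risers stay between 0.79 and 2.34 under all fits, and Drc7 and Cfap65 move to -0.16 and -0.07 with the choroid plexus term.

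Other ciliary genes without these names had negative fold changes in 41 of 53 tested genes, of 60 in the table, in Model against Con, where 49.9% of all tested genes did. Of the 53, 8 fell (Spef2, Tppp3, Trp73, Odad1, Iqub, Ccdc39, Iqcd and Gmnc), where 4.52% of all genes did, and 1 rose, where 3.11% did. This list shares genes with the ependymal list above, among them Tppp3, Ccdc39 and Zmynd10, so the lists are not independent. Their median log2 fold change was -0.28. The 1 that rose, Zmynd10, is needed to assemble dynein arms in the cytoplasm, and had 4.03, 4.73 and 5.62 CPM in MAN@SKI II mice, 4.13, 5.50 and 5.51 CPM in Model, and 2.60, 2.71 and 2.87 CPM in Con. Its log2 fold change was 0.89 ± 0.19 in Model against Con (edgeR, adjusted p = 0.0141). Spef2, a central apparatus protein, had the smallest adjusted p of the 8 that fell, at -1.04 ± 0.19 (adjusted p = 0.00706, edgeR). Gmnc and Trp73, regulators that act early in the making of multiciliated cells, fell by 0.93 and 0.66 on the log2 scale. Of 39 genes of intraflagellar transport and the primary cilium, 1 rose, Bbs7, at 0.55 ± 0.10 in Model against Con (edgeR, adjusted p = 0.00778), 0 fell, and the median was -0.02. The strains also differed in oligodendrocyte genes, of which 4 of 6 fell. None of 6 neuronal, 6 microglial or 5 endothelial genes was called in Model against Con, and 1 of 5 astrocyte genes fell (Gfap). What part these other cell types had in the members' levels was not tested.

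MAN@SKI II against Model gave no called member in either direction, and no gene of the whole table was called (0% in either direction). At an unadjusted p under 0.05, 2 members passed in edgeR, both higher, against 4.82% of all genes, and DESeq2 and limma-voom also called 0. Fold changes were positive in 55 members and negative in 13 (19.1%, against 49.4% of all genes), with a median of 0.10 against 0.0022 for all genes. Without MAN@SKI II 2, the library that stood apart, 42 were positive and 26 negative, with a median of 0.05. With the ependymal mean as a term, 38 were positive and 30 negative, with a median of 0.03. That mean includes motile cilium genes such as Foxj1, so the term also removes a shift shared by such genes, whatever its source. All MAN@SKI II libraries lay above all Model libraries in 5 members (7.35%, against 4.63% of all genes) and below in 0 (against 4.80%). The 2 members at an unadjusted p under 0.05, named after their values were seen, were the inner arm heavy chains Dnah3 and Dnah12. Dnah3 had 0.690, 0.848 and 1.02 CPM in MAN@SKI II mice, 0.239, 0.405 and 0.278 CPM in Model, and 0.650, 0.530 and 0.639 CPM in Con. Its log2 fold change was 1.44 ± 0.37 in MAN@SKI II against Model (edgeR, adjusted p = 0.914). Dnah12 had 0.920, 2.68 and 2.04 CPM in MAN@SKI II mice, 0, 0.869 and 0.334 CPM in Model, and 1.69, 0.942 and 0.586 CPM in Con. Dnah3 rested on 4 to 16 counts a library and Dnah12 on 0 to 38. A Dnah3 transcript shares 1093 bases at 100% identity with Lyrm1, which had 757 counts over all libraries, so the values of Dnah3 are uncertain.

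MAN@SKI II against Con shares its Con libraries with Model against Con. In it 5 members rose, the same 5 as above, or 7.35% where 3.43% of all genes rose, and 4 fell (Cfap45, Cfap69, Cfap70 and Drc3), or 5.88% where 4.70% of all genes fell. The 5 rises were called in every fit with a library left out, but the number that fell was then 1 to 3. It was 2 without MAN@SKI II 1, MAN@SKI II 2, Model 1 or Con 1, and 1 without Model 3, Con 2 or Con 3. With no filter it was 2 and in the 6 compared libraries alone 1, and Cfap69 was among those called in all of these fits. Fold changes were positive in 34 members and negative in 34 (50%, against 50.2% of all genes), with a median of 0.01. All libraries of MAN@SKI II lay above all of Con in 10 members (14.7%, against 13.0% of all genes) and below all of Con in 9 (13.2%, against 14.4%). At an unadjusted p under 0.05, 20 members passed, against 21.6% of all genes. The 5 risers differed little between the BTBR groups, with log2 fold changes in MAN@SKI II against Model of 0.05 ± 0.16 for Cfap54, 0.16 ± 0.21 for Dnah6, 0.05 ± 0.23 for Dnah8, 0.14 ± 0.09 for Drc1 and 0.30 ± 0.17 for Cfap46. For Drc7 it was 0.72 ± 0.57, the widest error of the called members.

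Counting can blur some members. Transcripts of 13 members had a near-identical copy at 97% identity or more, among them Dnah3, Dnah11, Dnah7a, Dnah7b and Dnah7c, and Rsph3a and Rsph3b, and their single values are uncertain. None of the 11 members called in either comparison with Con was among them. By locus, however, Cfap46 overlaps Gm4459 on the same strand, which had 17.4 CPM in Model and 17.1 CPM in Con. The values of Cfap46 are therefore uncertain too. Same-strand genes that overlap Dnah6 and Drc1 had 2 and 37 counts over all libraries. Summed, the Dnah7 copies had a log2 fold change of -0.56 ± 0.16 in Model against Con (edgeR, adjusted p = 0.0565).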

How the data were processed

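Hippocampal poly(A) RNA of 9 mice, 3 in each of the groups MAN@SKI II, Model and Con, was measured as gene counts and FPKM. Counts per gene and FPKM values were deposited by the authors, per the file headers. The submitters' processing notes name HISAT2 2.0.4, StringTie 1.3.3b, Bowtie2, edgeR 3.2.0 and GRCm39, without roles. The authors' strand setting and annotation release were not given in the sources used here. Coordinates of genes are those of the deposited table. Promoter sequences are from RefSeq (GRCm38.p6), and transcript similarity was searched with BLAST on GENCODE M21 transcripts.

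All genes were fitted together in edgeR 4.0.16 (R 4.3.3; TMM factors, its default filter on low counts, robust quasi-likelihood F test, all 9 libraries, group only), with Benjamini-Hochberg adjustment over 17550 genes. CPM values are normalised by TMM. List means used log2 CPM with a prior count of 2, and the slope on the choroid plexus mean was fitted beside group. FPKM was used only to compare levels between genes. Alternatives were RLE factors, 2 other filters, DESeq2 1.42.0, limma-voom (limma 3.58.1), the replicate number as a block, the compared libraries alone, marker means as terms and each library left out. Counting of near-identical copies was changed by summing them, with the Rsph3 pair added after the data were seen. Scripts were tested on simulated data. Depth was 14751054 to 18827093 counts a library, and 3 counts are 0.159 to 0.203 CPM.

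Genes named were all called members, the 10 other tested members of highest mean CPM, well known axonemal genes, up to 4 called genes of each other list by adjusted p, Ttr and Foxj1. Genes named beyond these, in counts of members or lists, were chosen after their values were seen. Members and lists were chosen with earlier results of these data known.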

Additional observations from a re-analysis of the deposited data

How the results depend on the processing

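The 5 members higher in Model against Con were also called with RLE factors, with no filter or a filter of 1 CPM in 3 libraries, in DESeq2 and limma-voom, and in the 6 compared libraries alone, and the count was 4 to 5 when single libraries were left out. With the choroid plexus mean as a term it was 2 (Cfap54 and Dnah6), and in MAN@SKI II against Con it was 3. The 5 members lower in Model against Con were less stable, with 1 to 8 when single libraries were left out, 8 in the 6 compared libraries alone, and 0 with either marker term. In MAN@SKI II against Con the number lower was 1 to 3 when single libraries were left out, 2 with no filter, 1 in the 6 compared libraries alone, 0 with the choroid plexus term and 1 with the ependymal term. Slopes on the choroid plexus mean were called in 0 members, and in 1 (Drc7) in DESeq2, in limma-voom, with no filter and without MAN@SKI II 2 (range 0 to 1). The cause of these changes was not tested, beyond the fewer libraries in some fits.

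Replicate numbers did not pair the libraries, with a correlation of same-numbered deviations of -0.0987 to 0.0486 over 9 pairs and 5 of 18 best with their own number. With the replicate number as a block, 1 member was lower in MAN@SKI II against Con (Cfap69, without Cfap45, Cfap70 and Drc3). In Model against Con 4 were lower, with Tekt5 called and Drc3 and Drc7 not called.

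The values below changed sign; none was called in the main test of its comparison. In Model against Con, the choroid plexus term gave log2 fold changes of 0.97 for Cfap126, 0.62 for Cfap43, 0.32 for Cfap44, -0.44 for Cfap97, 1.27 for Dnah11, -0.23 for Dnah5, -0.11 for Dnah9, 0.20 for Dnai1, 0.029 for Rsph9, 0.25 for Tekt1 and 1.26 for Tekt2. The ependymal term gave 0.55 for Cfap126, 0.091 for Cfap44, -0.058 for Cfap97, 0.42 for Dnah11, -0.034 for Dnah5, 0.14 for Dnai1, 0.31 for Rsph4a, 0.22 for Spag6l, 0.24 for Tekt1 and 0.27 for Tekt2. With no filter Rsph4a was at 0.0011. With single libraries left out, the range crossed zero for Cfap97 (-0.019 to 0.13), Dnah5 (-0.084 to 0.16), Dnah9 (-0.00074 to 0.12), Dnai1 (-0.19 to 0.011), Rsph1 (-0.069 to 0.40), Rsph4a (-0.11 to 0.10), Spag6l (-0.13 to 0.082) and Tekt4 (-0.31 to 0.047). In MAN@SKI II against Con, the choroid plexus term gave 0.19 for Cfap65 and 0.44 for Drc7. In MAN@SKI II against Model, the ependymal term gave -0.076 for Cfap54, -0.040 for Cfap69, -0.059 for Dnah6 and -0.13 for Dnah8. There, leaving out single libraries gave -0.079 to 0.12 for Cfap54, -0.059 to 0.12 for Cfap69, -0.20 to 0.19 for Dnah8 and -0.058 to 0.020 for Drc3. Slopes on the choroid plexus mean, with single libraries left out, ran from -0.064 to 0.14 for Cfap54, -0.026 to 0.18 for Dnah8, -0.029 to 0.047 for Drc1, -0.065 to 0.15 for Cfap46, -0.030 to 0.25 for Cfap45 and -0.00010 to 0.13 for Cfap69. In the 6 BTBR libraries alone they were -0.067 for Cfap54, -0.075 for Cfap46 and 0.0028 for Drc3. The slope of Cfap46 was -0.0092 in limma-voom, and that of Drc3 on the ependymal mean was 0.031.

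Members near 1 CPM rest on few counts in each library, and differences of the size of their spread were not detectable at this depth.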

Other observations

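Genes within 500 kb of the called members, examined after the members' values were seen, were mixed in direction. Of 20 tested beside Cfap46, 1 rose and 2 fell in Model against Con. Of 4 beside Cfap54, 1 rose and 0 fell, and of 6 beside Cfap69, 1 rose and 1 fell. Among all tested genes 3.11% rose and 4.52% fell, and in sets this small a single call exceeds these shares. Genes beside Cfap45, Cfap70, Dnah8, Drc3 and Drc7 were also called. A link to the members was not tested. Lrrc27, beside Cfap46, averaged 8.46 ± 0.685 CPM in MAN@SKI II mice, 7.90 ± 1.18 CPM in Model and 4.47 ± 0.352 CPM in Con (SD over 3 libraries). Its log2 fold change was 0.82 ± 0.15 in Model against Con (edgeR, adjusted p = 0.00678). Kndc1, also beside Cfap46, averaged 168 ± 8.57 CPM in MAN@SKI II mice, 162 ± 6.81 CPM in Model and 197 ± 6.54 CPM in Con. It fell by 0.28 on the log2 scale (adjusted p = 0.0177). Cdk17, a cyclin-dependent kinase gene beside Cfap54, averaged 286 ± 30.7 CPM in MAN@SKI II mice, 282 ± 3.31 CPM in Model and 221 ± 8.51 CPM in Con, with a log2 fold change of 0.35 ± 0.08 in Model against Con (edgeR, adjusted p = 0.0150). Gm15459, beside Cfap69, averaged 630 ± 35.6 CPM in MAN@SKI II mice, 619 ± 100.8 CPM in Model and 251 ± 8.56 CPM in Con. It was thus higher in BTBR (edgeR, adjusted p = 1.66e-05 for Model against Con), opposite to Cfap69. Steap1, also beside Cfap69 and 1 of the 20 choroid plexus genes, averaged 0.0942 ± 0.163 CPM in MAN@SKI II mice and 1.77 ± 1.28 CPM in Con and was at 0 in Model. It was lower in Model against Con (edgeR, adjusted p = 0.0177), in the direction of Cfap69. No gene within 500 kb of Dnah6, Drc1 or Cfap65 was called, of 9, 16 and 34 tested.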
